A study of Homo sapiens with 6 samples.

Results

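The mitochondrial genome transcripts are the RNAs copied from the small circular chromosome inside mitochondria (chrM). They were taken as every gene of the count table whose symbol starts with MT-, which gave 37 genes of 60663 rows used. The rule reads gene symbols and no measured value. The 37 genes are 13 mRNAs, 2 ribosomal RNAs (rRNAs) and 22 transfer RNAs (tRNAs). Of these, 33 passed a filter on low counts and entered the test, and 4 tRNAs (MT-TF, MT-TW, MT-TA and MT-TS1) did not.

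RNA sequencing gave 6 libraries from 5637, a long-established line of human bladder cancer cells. The series description states that every library's cells were transfected with dCas13b-FTO, in which an RNA-guided Cas13b without cutting activity carries FTO, a demethylase of N6-methyladenosine in RNA. One group of 3 libraries also received a control guide RNA and the other group of 3 a guide to HRAS, the gene of a small GTPase, and RNA was sequenced 48 h after transfection. The table's column names carry FTO, whereas the sample titles and treatment labels name dCas13b without FTO. No untransfected cells and no library without dCas13b were among the 6 libraries. The labels do not state whether replicates are separate cultures, so a p-value reflects library spread that may be wholly technical.

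The human mitochondrial genome encodes 13 proteins, all of them subunits of the oxidative phosphorylation complexes, together with the rRNAs and tRNAs needed to translate them inside the organelle. Both of its strands are transcribed into long precursor RNAs, and excision of the tRNAs that lie between most mRNAs and rRNAs releases the individual transcripts. Most genes are copied from the heavy strand, and the light strand serves for MT-ND6 and a minority of the tRNAs. Mitochondrial RNA is among the most abundant RNA of most cells, and a read from it cannot be told from a read of a nuclear copy with the same sequence.

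The 28 heavy-strand genes, annotated on the plus strand of the reference, are 12 mRNAs, both rRNAs and 14 tRNAs. The 9 light-strand genes are MT-ND6 and 8 tRNAs (MT-TQ, MT-TA, MT-TN, MT-TC, MT-TY, MT-TS1, MT-TE and MT-TP). In GENCODE release 29 (GRCh38, which is also the submitters' hg38) the order along chrM runs from MT-TF (chrM:577-647) to MT-TP (chrM:15956-16023). The genes are packed without introns: of 36 neighbouring pairs, 20 had neither a gap nor an overlap, 5 overlapped, and the other 11 were at most 31 bases apart. Of the 5 overlaps, 2 hold an mRNA start more than 1 base inside another mRNA's end on the same strand. MT-ATP6 and MT-CO3 share 1 base, at chrM:9207. The 2 longer mRNA overlaps are printed here from the GENCODE transcripts because a read from these bases fits both genes. The overlap is in capitals, with 20 bases on either side, 5′ to 3′ on the plus strand. The first is the 46 bases shared by MT-ATP8 and MT-ATP6 (chrM:8507-8592 printed, overlap chrM:8527-8572), and the second is the 7 bases shared by MT-ND4L and MT-ND4 (chrM:10740-10786 printed, overlap chrM:10760-10766).

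MT-ATP8/MT-ATP6: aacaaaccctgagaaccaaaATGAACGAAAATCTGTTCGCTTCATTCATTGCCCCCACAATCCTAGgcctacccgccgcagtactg

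MT-ND4L/MT-ND4: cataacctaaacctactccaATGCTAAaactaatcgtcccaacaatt

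Library totals ran from 24968702 to 32283370 counts. HRAS mRNA, the guide's target, stood at 182 ± 43.7 CPM (SD, n = 3) with the control guide and 184 ± 16.5 CPM (SD, n = 3) with the HRAS guide, so its level does not check the labels. CPM here are counts scaled to a common size of 1000000 after TMM adjustment of the library totals. The marker values that follow use the library totals without that adjustment. Urothelial and epithelial markers summed to 10300 to 13100 CPM in the control libraries and 10600 to 11800 CPM in the HRAS guide libraries, with 11 of 13 at a mean of 1 CPM or more. Summed immune markers held at most 4.85 CPM and endothelial and red cell markers at most 5.6 CPM in any library. Fibroblast markers summed to 157 to 207 and 146 to 187 CPM, nearly all from COL1A1, and none of the markers was at 0 in all libraries. A trend with GC content set libraries apart within both groups. The rank correlation (Spearman's rho) over 13981 nuclear genes, which are not independent replicates, between a gene's GC content and its log2 CPM relative to the mean of the libraries was -0.621, 0.762 and -0.332 in control replicates 1 to 3. It was 0.425, -0.674 and 0.113 in HRAS guide replicates 1 to 3. Control replicate 2 and HRAS guide replicate 2 lay farthest from the middle, in opposite directions.

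Together the 37 genes took 7.049%, 6.913% and 7.286% of all counts in control replicates 1 to 3. With the HRAS guide they took 6.914%, 6.742% and 6.671%. The groups overlapped by a narrow margin, and an exact permutation test over libraries (two-sided) gave p = 0.2. With 3 libraries against 3, that test cannot give a p below 0.1. The widest half-width of a 95% Wilson interval of any of these shares, which covers counting error only, was 0.01 percentage points. A lower share in bulk RNA cannot be told apart as less mitochondrial RNA in all cells, less in some or more other RNA.

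Counts of mitochondrial mRNAs and rRNAs led the whole table. Ranked by mean counts over the 6 libraries, MT-CO1 was in place 1 of all genes, MT-RNR2 in place 2, MT-ND4 in place 3, MT-CO2 in place 4 and MT-CO3 in place 5. In all, 6 of the 10 most abundant genes and 12 of the 100 most abundant were mitochondrial.

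Per kilobase of transcript, the levels fell into steps. MT-CO1, which encodes the catalytic core subunit of cytochrome c oxidase, stood at 10264 ± 491 CPM per kilobase (SD, n = 6). MT-CO2, another core subunit of that enzyme, followed at 9769 ± 659 CPM per kilobase, and the ranges of the pair over the 6 libraries overlapped. MT-CO3 (8253 ± 398 CPM per kilobase) lay below both and overlapped MT-ATP6, a subunit of the proton channel of ATP synthase (7388 ± 381). Next came the large-subunit rRNA MT-RNR2 (6337 ± 528 CPM per kilobase) and the complex I mRNA MT-ND4 (5838 ± 312), whose ranges overlapped each other and no other gene's. Any rRNA removal is not given in the sources used here, so the place of an rRNA among the mRNAs may not be its place in the cells. MT-ND1, MT-ND4L, the small-subunit rRNA MT-RNR1 and MT-ND2 formed a step of neighbours that overlapped, from 3594 ± 214 CPM per kilobase for MT-ND1 down to 3068 ± 116 for MT-ND2. MT-CYB, the cytochrome b of complex III, followed at 2708 ± 155 CPM per kilobase, apart from MT-ND2 above it and MT-ATP8 below it in the order. Its range of 2499 to 2888 still overlapped that of MT-ND4L (2700 to 4212), so it was not apart from that whole step. MT-ATP8 stood at 1572 ± 128 CPM per kilobase, apart from both of its neighbours, although it shares its RNA with MT-ATP6, as MT-ND4L (3441 ± 572) does with MT-ND4. Counts over such overlaps depend on how reads that fit both genes were treated, which is not given in the sources used here. At the foot of the mRNAs lay MT-ND5 (1155 ± 67.8 CPM per kilobase), MT-ND3 (1081 ± 66.2) and the light-strand mRNA MT-ND6 (1059 ± 58.8), which overlapped. Reads of MT-ND6 cannot be told from antisense RNA of the heavy strand's transcript, since the strandedness of the libraries is not given.

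**Figure D1:**
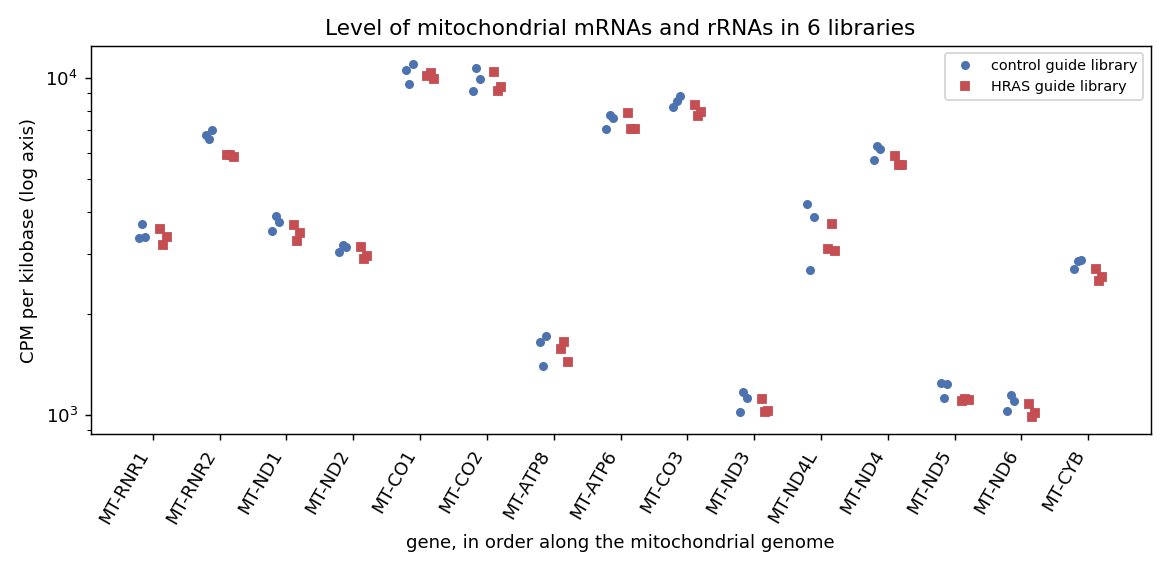
Level of the 13 mitochondrial mRNAs and 2 rRNAs in CPM per kilobase (log axis) in order along the genome, 1 point per library, circles for the control guide and squares for the HRAS guide. MT-CO1 is highest (mean 10264 CPM per kilobase) and MT-ND6 lowest (1059), and the groups are apart in MT-RNR2 and MT-ND5.

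The large-subunit rRNA was the mitochondrial transcript with the smallest p for a difference between the guides. MT-RNR2 (ENSG00000210082, chrM:1671-3229, plus strand, a single exon) had 10589, 10271 and 10949 CPM across control replicates 1 to 3. With the HRAS guide it stood at 9193, 9216 and 9059 CPM. Every HRAS guide library lay below every control library, and the HRAS guide libraries were close to one another. The means were 10603 ± 339 CPM and 9156 ± 84.7 CPM (SD, n = 3 each). The log2 fold change, HRAS guide minus control guide, was -0.21 ± 0.05 (SE; 95% interval -0.33 to -0.09), at an unadjusted p of 0.00236 by edgeR. Adjusted over 19836 genes, the edgeR p was 0.883, so MT-RNR2 did not pass the threshold of 0.05. Over the alternatives of the test run here, its adjusted p ran from 0.0455 to 1.

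The small-subunit rRNA did not share this separation. MT-RNR1 (chrM:648-1601), which is copied just ahead of MT-RNR2 into the same precursor RNA, stood at 3190, 3521 and 3227 CPM with the control guide and 3392, 3037 and 3211 CPM with the HRAS guide. The groups overlapped. Its log2 fold change was -0.04 ± 0.07 (SE; edgeR adjusted p = 1). The ratio of MT-RNR2 to MT-RNR1 counts, in which the library total cancels, was 3.32, 2.917 and 3.393 with the control guide and 2.71, 3.034 and 2.821 with the HRAS guide. That ratio also overlapped, because control replicate 2 was low and HRAS guide replicate 2 was high, and an exact permutation test gave p = 0.2. A difference between the 2 rRNAs in their response to the guide was thus not shown.

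As a share of all counts, both rRNAs together took 1.389%, 1.342% and 1.405% with the control guide and 1.253%, 1.245% and 1.237% with the HRAS guide. The groups were apart, at 1.379% ± 0.0332 and 1.245% ± 0.00797 (SD, n = 3 each), and the exact permutation p was 0.1, the smallest the design allows. Set against the 13 mRNAs of the same genome, which removes the library total, the rRNA to mRNA ratio was 0.246, 0.2413 and 0.2395 with the control guide. It was 0.2217, 0.227 and 0.2281 with the HRAS guide, again apart (exact permutation p = 0.1). For MT-RNR2 alone the ratio to the mRNAs was 0.189, 0.1797 and 0.185 against 0.162, 0.1707 and 0.1684, with the groups apart (exact permutation p = 0.1). MT-RNR2 counts enter all of these quantities and make up most of the rRNA counts, so they are not independent results. For MT-RNR1 the ratio to the mRNAs was 0.05695, 0.06159 and 0.05451 against 0.05976, 0.05627 and 0.05969, with overlapping groups (exact permutation p = 0.9). All of these rRNA shares and ratios also depend on any rRNA removal, which is not given in the sources used here.

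The values of MT-RNR2 within libraries of like GC trend carry no spread or test, because each such set has an arm of 1 library. Among the libraries with a negative trend (control replicates 1 and 3, HRAS guide replicate 2) the log2 difference was -0.22. Among those with a positive trend (control replicate 2, HRAS guide replicates 1 and 3) it was -0.17. After a correction of each library for its trends with GC content and transcript length, MT-RNR2 stood at 9722, 11884 and 10616 CPM against 9537, 8623 and 9135 CPM. These groups were still apart, and the log2 fold change was -0.24 ± 0.07 (SE; edgeR adjusted p = 0.534). That fit called 38 of 19489 genes (0.195%) and 0 members. With the sign of the GC trend as a covariate, an alternative chosen after seeing the data, the log2 fold change was -0.20 ± 0.04 and MT-RNR2 passed (edgeR adjusted p = 0.0455). In that fit 81 of 19836 genes passed (0.408%).

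**Figure D2:**
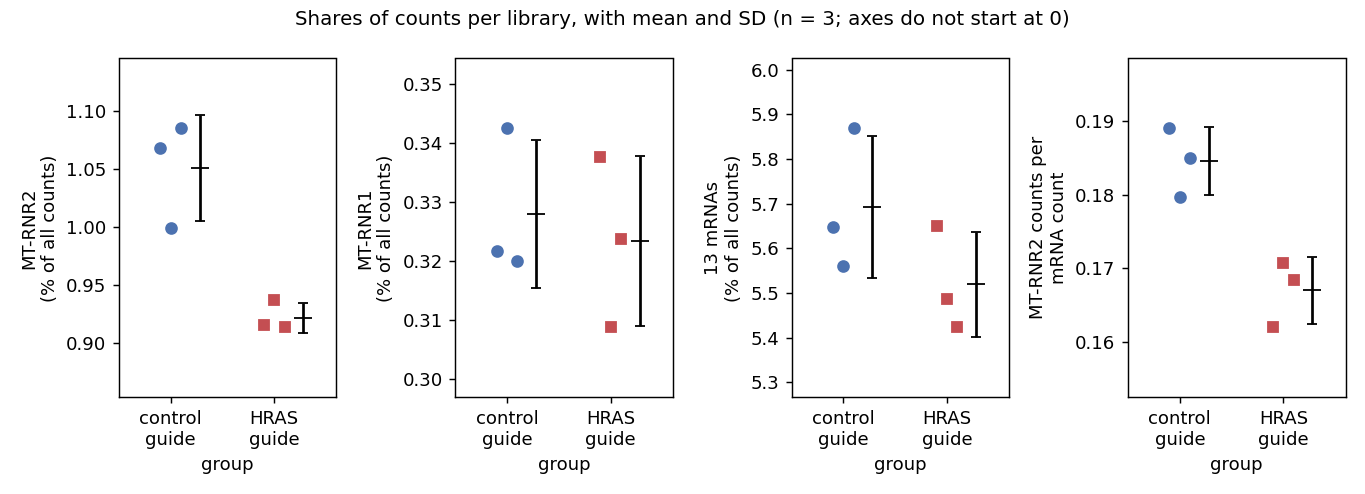
Percent of all counts in MT-RNR2, in MT-RNR1 and in the 13 mRNAs, and MT-RNR2 counts per mRNA count, with 1 point per library and bars for the mean and SD (n = 3 each); the axes do not start at 0. The groups are apart for MT-RNR2 (0.999% to 1.085% with the control guide, 0.9131% to 0.9366% with the HRAS guide) and for its ratio to the mRNAs (0.1797 to 0.189 against 0.162 to 0.1707), and overlap for MT-RNR1 and the mRNAs.

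Among all 33 tested members, 0 passed the adjusted threshold in edgeR, where 2 of 19836 genes did (0.0101%). DESeq2 called 0 of the members too, against 25 of the 14231 genes to which it gave an adjusted p (0.176%). It gives none to genes of low counts, so a member among those could not be called. With limma-voom 0 members were called, against 1 gene (0.00504%). At an unadjusted edgeR p under 0.05, 2 members were lower with the HRAS guide (MT-RNR2 and MT-TV), 6.06% of the tested members against 1.70% of all genes tested, and 0 were higher, against 1.64%. Groups were apart with the HRAS guide lower in 3 members (MT-RNR2, MT-ND5 and MT-TV), or 9.09%, where 4.0% of all genes were. They were apart with the HRAS guide higher in 0 members, where 4.81% of all genes were. Of the 33 log2 fold changes, 26 were below 0 (78.79%), against 50.5% of all genes. The members are cut from shared precursor RNAs and lie in the same libraries, so they are not independent of one another.

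All 13 mRNAs had log2 fold changes below 0, from -0.13 for MT-ND4L to -0.02 for MT-ATP6, and none of them passed. Their median was -0.09, beside a median of -0.0014 over all genes tested. It was -0.06 when library totals alone scaled the libraries, which moved the median of all genes to 0.0215. With the GC and length correction it was -0.12, with all 13 below 0, beside -8e-04 over all genes. Leaving out single libraries put 1 or 2 of the 13 above 0 in 5 of 6 cases, and the covariate for the GC trend put 2 of 13 there. Summed, the mRNAs took 5.648%, 5.561% and 5.869% of counts with the control guide and 5.65%, 5.486% and 5.423% with the HRAS guide. The groups overlapped, and the difference of -0.173 percentage points had an exact permutation p of 0.3. Within the libraries of negative GC trend this difference was -0.272 percentage points, and within those of positive trend -0.0242.

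Complex I, the NADH dehydrogenase that feeds electrons into the respiratory chain, takes 7 of the mitochondrial mRNAs. Its median log2 fold change was -0.10, with all 7 between -0.13 and -0.06. MT-ND5, which encodes a proton-pumping subunit of the membrane arm, stood at 2258, 2033 and 2245 CPM with the control guide and at 1998, 2021 and 2007 CPM with the HRAS guide. The groups were apart by a narrow margin, with the second replicate of each guide closest, and the log2 fold change was -0.12 ± 0.07 (SE; unadjusted p = 0.102 by edgeR). Within the positive GC trend libraries its difference was -0.02 and within the negative ones -0.16.

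MT-ND1, a subunit next to the quinone-binding site, stood at 3369, 3716 and 3584 CPM against 3490, 3139 and 3320 CPM. The groups overlapped, at a log2 fold change of -0.10 ± 0.07. MT-ND2 stood at 3260 ± 87.2 against 3135 ± 132 CPM (SD, n = 3 each), a log2 fold change of -0.06 ± 0.06. MT-ND3, a short subunit, stood at 383 ± 27.3 against 365 ± 18.8 CPM (-0.07 ± 0.08). Neither pair of groups was apart.

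MT-ND4, a further pumping subunit, stood at 7883, 8627 and 8471 CPM with the control guide and 8069, 7594 and 7626 CPM with the HRAS guide. The log2 fold change was -0.10 ± 0.06, with overlap through control replicate 1. MT-ND4L, whose last bases are the first bases of MT-ND4, stood at 1251, 802 and 1146 CPM against 926, 1098 and 908 CPM. It was the most variable of the mRNAs, and its log2 fold change of -0.13 ± 0.15 had a 95% interval of -0.45 to 0.20. MT-ND6, the light-strand member of complex I, stood at 540, 602 and 576 CPM against 566, 519 and 533 CPM (-0.09 ± 0.07).

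Complex III has MT-CYB as its mitochondrial mRNA. It stood at 3084, 3273 and 3295 CPM with the control guide and 3100, 2851 and 2935 CPM with the HRAS guide. HRAS guide replicate 1 reached into the control range, and the log2 fold change was -0.12 ± 0.06 (SE; unadjusted p = 0.0857 by edgeR).

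Complex IV, cytochrome c oxidase, has 3 of the mRNAs, with a median log2 fold change of -0.04. MT-CO1 stood at 16266, 14829 and 16998 CPM against 15624, 15925 and 15323 CPM, a log2 fold change of -0.04 ± 0.06. The control libraries held both the lowest and the highest of these values. MT-CO2 stood at 6263, 7304 and 6781 against 7098, 6243 and 6405 CPM (-0.04 ± 0.07). MT-CO3 stood at 6446, 6683 and 6910 against 6529, 6061 and 6193 CPM (-0.09 ± 0.06), and both pairs of groups overlapped.

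Complex V, the ATP synthase, has MT-ATP6 and MT-ATP8 from this genome, at a median of -0.03. MT-ATP6 stood at 4791, 5268 and 5163 CPM against 5354, 4799 and 4812 CPM (-0.02 ± 0.07). MT-ATP8, a small subunit beside the proton channel, stood at 342, 290 and 355 CPM against 326, 342 and 297 CPM (-0.03 ± 0.10). In both genes the groups overlapped.

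The makeup of the mRNA pool by complex moved little. Complex I took 33.27% to 34.15% of mitochondrial mRNA counts with the control guide and 32.9% to 33.15% with the HRAS guide. These groups were apart by a narrow margin. MT-CYB took 5.506% to 5.725% against 5.282% to 5.462%, also apart. Complex IV took 50.41% to 51.84% against 51.54% to 52.29%, and complex V 9.164% to 9.722% against 9.497% to 10.01%, with overlap in both. These 4 shares sum to a fixed total, so they are not independent.

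**Figure D3:**
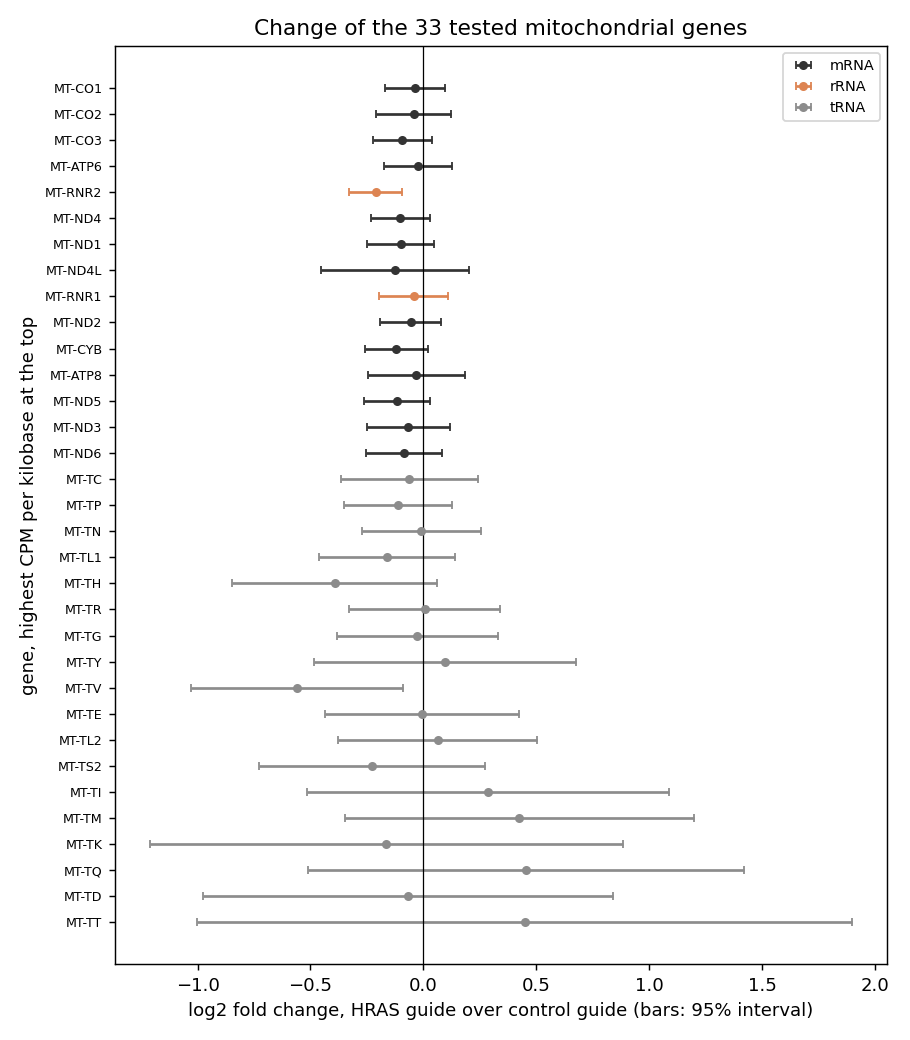
Log2 fold change, HRAS guide over control guide, of the 33 tested mitochondrial genes, ordered by CPM per kilobase with the highest at the top; bars are 95% intervals from the edgeR standard error. The mRNAs and rRNAs lie between -0.21 (MT-RNR2) and -0.02 (MT-ATP6), while the tRNAs spread from -0.56 (MT-TV) to 0.45 (MT-TQ) with wide intervals, and the interval leaves out 0 for MT-RNR2 and MT-TV.

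Mitochondrial tRNAs, which carry amino acids to the organelle's ribosomes, were a trace of the libraries. All 22 together held 120.8, 106.1 and 124.1 of every 1000000 counts with the control guide and 114.9, 109.8 and 111.1 with the HRAS guide. The groups overlapped (exact permutation p = 0.4). The labels do not say how fragments were selected by size, so these counts are not a measure of mature tRNA, and reads of precursor RNA that span a tRNA could enter them. Most tRNA counts fell on a few light-strand genes. MT-TC, MT-TP and MT-TN, the tRNAs for cysteine, proline and asparagine, took 62.77%, 58.41% and 64.78% of tRNA counts with the control guide. They took 62.66%, 65.48% and 60.69% with the HRAS guide. Their sequences are printed from the GENCODE transcripts, 5′ to 3′ on the minus strand of chrM, because they carry the light strand's tRNA signal. Capitals mark the anticodon: MT-TC is chrM:5761-5826, MT-TP chrM:15956-16023 and MT-TN chrM:5657-5729.

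MT-TC: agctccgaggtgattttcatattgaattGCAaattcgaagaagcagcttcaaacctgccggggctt

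MT-TP: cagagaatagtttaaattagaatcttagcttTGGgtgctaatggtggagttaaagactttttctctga

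MT-TN: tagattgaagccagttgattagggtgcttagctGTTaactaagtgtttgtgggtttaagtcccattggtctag

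MT-TC held 1199, 832 and 1291 counts with the control guide and 927, 1123 and 1105 with the HRAS guide. As CPM these were 38.1 ± 6.92 and 36.5 ± 2.29 (SD, n = 3 each), with a log2 fold change of -0.06 ± 0.14 and overlapping groups. MT-TP held 661, 583 and 765 counts against 556, 585 and 709. Its CPM overlapped as well, with a log2 fold change of -0.11 ± 0.11. MT-TN held 313, 343 and 396 counts against 314, 363 and 363, a log2 fold change of -0.01 ± 0.12. None of the 3 tRNAs passed. Per kilobase they stood at 565 ± 71.2, 327 ± 26.6 and 166 ± 12.1 CPM (SD, n = 6), each apart from its neighbours in level.

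MT-TV, the valine tRNA between the 2 rRNA genes, was the tRNA with the smallest p. It held 79, 57 and 90 counts with the control guide and 51, 45 and 56 with the HRAS guide. In CPM these were 2.73, 2.07 and 2.98 against 2.05, 1.54 and 1.72, so the groups were barely apart, at control replicate 2 and HRAS guide replicate 1. The log2 fold change was -0.56 ± 0.21 (95% interval -1.03 to -0.09), at an unadjusted p of 0.0244 and an adjusted p of 1 by edgeR. Within the libraries of negative GC trend the difference was -0.89 and within those of positive trend -0.14. Per 1000 counts of MT-RNR2 it held 0.2582, 0.2011 and 0.2718 counts against 0.2232, 0.1667 and 0.19, with overlap. MT-TH, the histidine tRNA downstream of MT-ND4, stood at 7.41, 11.4 and 8.23 CPM against 8.61, 5.43 and 6.64 CPM, a log2 fold change of -0.39 ± 0.20, which came to -0.19 when control replicate 2 was left out and to -0.25 when HRAS guide replicate 2 was. Of the 18 tested tRNAs 11 were below 0 and 7 above, with a median of -0.02. With library totals alone, which moved the tRNAs and all genes alike, 9 were below and 9 above at a median of 0.0048. With the GC and length correction 14 were below and 4 above at a median of -0.18, beside -8e-04 over all genes. The sign balance of the tRNAs thus depended on the processing. The 4 untested tRNAs had at most 13 counts in any library. The highest fold changes, 0.45 for MT-TQ and 0.45 for MT-TT, belonged to tRNAs with at most 1.09 CPM in any library. For MT-TQ the value was 0.0076 without HRAS guide replicate 1 and 0.78 without HRAS guide replicate 2.

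**Figure D4:**
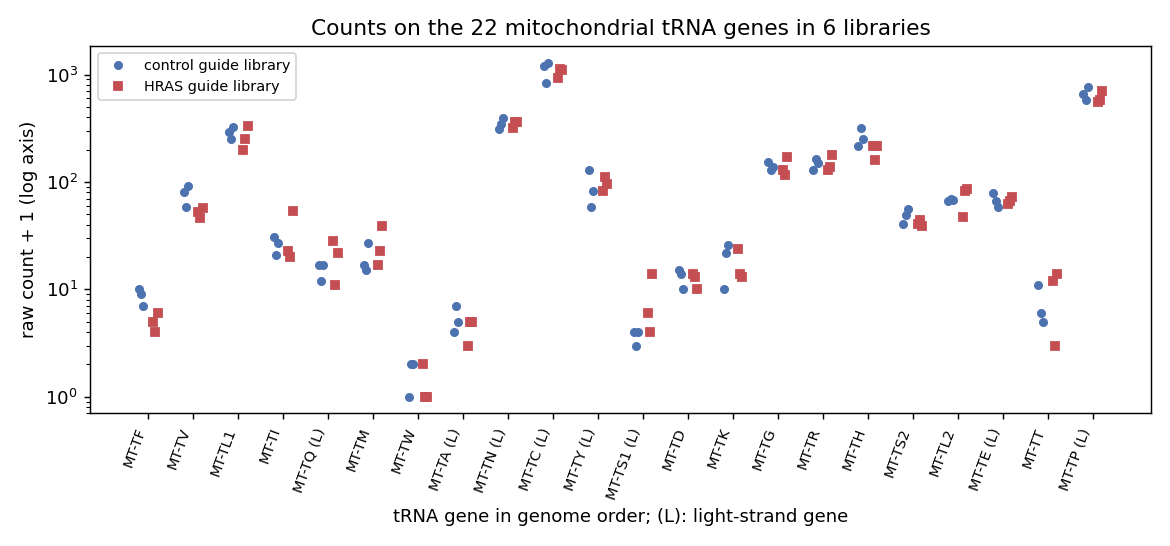
Raw counts plus 1 (log axis) of the 22 mitochondrial tRNA genes in order along the genome, 1 point per library, circles for the control guide and squares for the HRAS guide; (L) marks the light-strand genes. MT-TC, MT-TP and MT-TN, all light-strand genes, have the most counts (832 to 1291 for MT-TC with the control guide), and MT-TW has at most 1.

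Heavy-strand genes took nearly all mitochondrial counts, and the balance of the strands did not differ detectably between the guides. The light-strand genes took 0.8915%, 0.9445% and 0.9008% of mitochondrial counts with the control guide and 0.9296%, 0.8991% and 0.9165% with the HRAS guide. The means were 0.9123% ± 0.0283 and 0.9151% ± 0.0153 (SD, n = 3 each; exact permutation p = 0.9). MT-ND6 as a percent of heavy-strand mRNA counts was 0.9736, 1.065 and 0.982 against 1.008, 0.9711 and 1.001 (exact permutation p = 0.8). Among tRNA counts alone the strands were reversed in weight: the light-strand tRNAs, 8 of 22, took 69.38%, 63.16% and 69.04% with the control guide. They took 68.83%, 71.58% and 66.38% with the HRAS guide (exact permutation p = 0.7). Since strandedness is not given, a read is assigned here to a strand by the gene it was counted for and not by its own direction.

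The count ratios within the 2 pairs of mRNAs with the longer overlaps followed the libraries' GC trend across the groups. MT-ATP8, of 39.6% GC the lowest of the mRNAs and rRNAs, and MT-ATP6, of 44.2%, come from shared RNA. Their count ratio was 0.07139, 0.05495 and 0.06881 with the control guide and 0.06096, 0.07127 and 0.0617 with the HRAS guide. Across the 6 libraries this ratio had a Pearson r of -0.988 (permutation p = 0.00278, Benjamini-Hochberg adjusted 0.0117) and a Spearman rho of -0.943 (permutation p = 0.0167, adjusted 0.0437) with the GC trend. Without the 2 libraries farthest from the median trend, which were the second replicate of each guide, r was -0.974. Among the libraries left, the HRAS guide libraries are those of higher trend. The guide and the trend therefore cannot be told apart in this or any other r given without these 2 libraries. The p-values were adjusted over the 21 relations computed, of which 13 had an adjusted Pearson p under 0.05.

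MT-ND4L (43.1% GC) and MT-ND4 (44.3% GC) behaved alike, with a count ratio of 0.1587, 0.09299 and 0.1353 against 0.1148, 0.1446 and 0.119. Pearson's r was -0.965 (permutation p = 0.00278, adjusted 0.0117), rho was -0.943 (permutation p = 0.0167, adjusted 0.0437), and r without those 2 libraries was -0.956. Within a group the lowest ratio of both pairs was in the library of highest GC trend: control replicate 2 and HRAS guide replicate 1. Of the 15 shares of single mRNAs and rRNAs in their summed counts, 6 had an r above 0 and 4 an r below 0 at that threshold, and 5 did not pass. The 15 shares sum to a fixed total in each library, so these relations are not independent. The sign was not ordered by the gene's own GC content. MT-ND1, of 47.7% GC the highest, had a positive relation: its share of mRNA and rRNA counts had an r of 0.972 (permutation p = 0.00139, adjusted 0.0117) and a rho of 1 (permutation p = 0.00278, adjusted 0.0437), and r was 0.97 without the 2 libraries. MT-CO1, of 46.2% GC, had a negative one, with an r of -0.885 (permutation p = 0.00278, adjusted 0.0117), a rho of -0.943 (permutation p = 0.0167, adjusted 0.0437) and an r of -0.826 without them. MT-ND3, of 40.2% GC, had a positive one by Pearson's r alone, at 0.883 (permutation p = 0.0194, adjusted 0.0371), with a rho of 0.829 (permutation p = 0.0583, adjusted 0.0875) and an r of 0.963 without them. For the MT-RNR2 to mRNA ratio the relation with the GC trend did not pass, with r at -0.38 (permutation p = 0.428, adjusted 0.449) and rho at -0.371 (permutation p = 0.497, adjusted 0.522). Without the 2 libraries its r was -0.988, over 4 libraries in which the HRAS guide libraries are those of higher trend, so the guide and the trend cannot be told apart there. The share of all 37 genes in the counts had an r of -0.179 (permutation p = 0.724, adjusted 0.724) and a rho of -0.086 (permutation p = 0.919, adjusted 0.919).

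**Figure D5:**
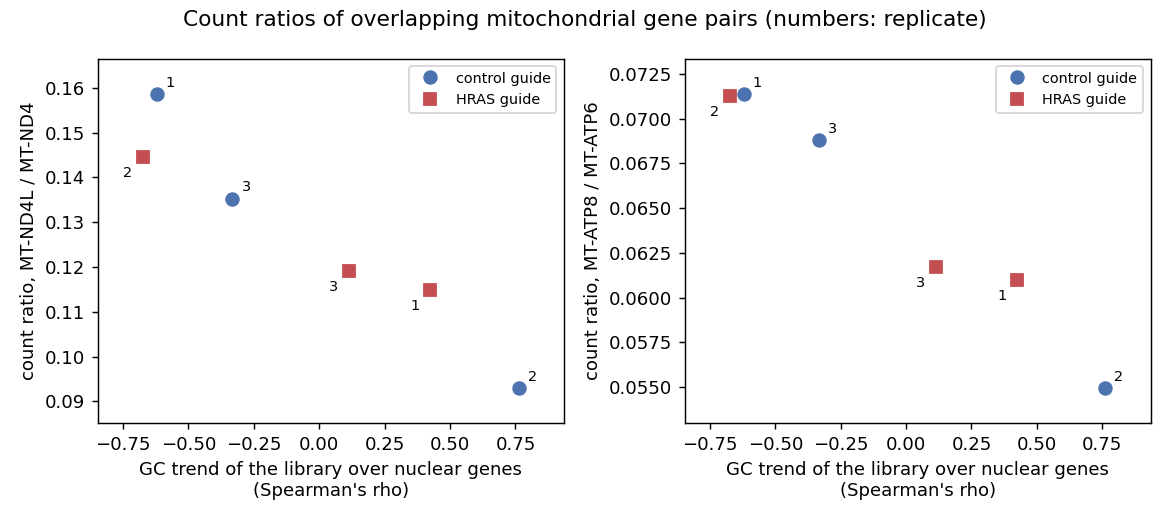
Count ratio of MT-ND4L to MT-ND4 and of MT-ATP8 to MT-ATP6 in each library (vertical axes, not from 0) against the library's GC trend, Spearman's rho over nuclear genes (horizontal axes). Circles are control guide and squares HRAS guide libraries, numbered by replicate, and both ratios fall along the trend across the groups (r = -0.965 and -0.988).

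The correction for GC content and length, estimated on nuclear genes, narrowed the spread of few mitochondrial genes. Of the 15 mRNAs and rRNAs the coefficient of variation over the 6 libraries became smaller in 3, MT-ND4L (from 16.62% to 11.63%), MT-ATP8 (8.12% to 5.67%) and MT-CO1 (4.78% to 3.63%). It became larger in the other 12, such as MT-ND2 (3.79% to 10.64%) and MT-ND3 (6.12% to 15.04%). Except where stated, the values given for single genes are those without the correction, which was run as an alternative.

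Reads of the mitochondrial genome can also be counted for its nuclear copies, stretches of mitochondrial DNA inserted into the nuclear chromosomes. The table lists 404 genes named as such copies, of which 12 had a mean of 10 or more counts. Their summed counts were 6.613, 4.063 and 7.154 per 1000 mitochondrial counts with the control guide and 6.936, 7.17 and 6.508 with the HRAS guide. Of this sum 96.2% to 98.2% lay in 3 genes within 1 stretch of chromosome 1. MTATP6P1 (chr1:633696-634376) differs from MT-ATP6 in the GENCODE sequences at 10 of 681 positions. It held 8519, 4404 and 10716 counts against 8332, 8992 and 9256, which is 3.03% to 6.86% of MT-ATP6 counts. MTND2P28 (chr1:629640-630683), of 98.37% identity to MT-ND2, held 4177, 3056 and 4601 counts against 3121, 4342 and 4085. MTCO1P12 (chr1:631074-632616), of 98.7% identity to MT-CO1, held 306, 205 and 300 counts against 213, 285 and 277. Control replicate 2 was lowest in all 3 copies. The ratio of MTND2P28 to MT-ND2 had an r of -0.976 with the GC trend (permutation p = 0.00417, adjusted 0.0125), a rho of -0.943 (permutation p = 0.0167, adjusted 0.0437) and an r of -0.947 without the 2 libraries. For MTATP6P1 and MT-ATP6, the pair with more counts on the copy, the relation did not pass: r was -0.717 (permutation p = 0.0542, adjusted 0.0797), rho was -0.6 (permutation p = 0.242, adjusted 0.282) and r without the 2 libraries was -0.28. Transcripts of the copies and reads of the mitochondrial genome placed on them cannot be told apart in counts.

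Nuclear genes that make, process or use these transcripts showed 0 calls in edgeR in each of 5 lists. At an unadjusted edgeR p under 0.05 the lists held 2 of 223 tested genes together (0.897%), MTERF2 and ALKBH1, against 3.34% of all genes tested. DESeq2 called 0 of the genes in these lists, but it gave no adjusted p to MRM2 and NDUFA7, which had low counts. The counts below and above 0 that follow stand beside 50.5% of all genes below 0. Of 16 genes for mitochondrial transcription and replication, 5 were below 0 and 11 above, with a median of 0.05. MTERF2, a member of the mitochondrial transcription termination factor family, stood at 4.46, 3.95 and 4.63 CPM against 4.79, 5.67 and 6.3 CPM (0.36 ± 0.15; unadjusted p = 0.0372 by edgeR). The groups were apart, as they were in no other gene of this list. MTERF1, of the same family, had 0.15 ± 0.11.

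Of 43 genes for the processing, modification and decay of mitochondrial RNA, 9 were below 0 and 34 above, with a median of 0.03. ALKBH1, a dioxygenase that demethylates nucleic acids and acts on tRNA, stood at 17, 15 and 18.9 CPM against 13.1, 13.7 and 14.7 CPM. Those groups were apart, and the log2 fold change was -0.30 ± 0.12 (unadjusted p = 0.0314 by edgeR). TRIT1, which modifies tRNAs next to the anticodon, had 0.14 ± 0.09. In this list ALKBH1 was the 1 gene with groups apart and the HRAS guide lower, and 5 genes had groups apart with it higher.

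Regulators of mitochondrial biogenesis numbered 7, with 6 below 0 and a median of -0.08, PPRC1 at -0.14 ± 0.09 and PPARGC1A at -0.22 ± 0.20. None of these regulators had groups apart. Proteins of the mitochondrial ribosome, whose RNA core is MT-RNR1 and MT-RNR2, had 81 of 82 genes tested, 25 below 0 and 56 above, with a median of 0.02. MRPS24 was at -0.39 ± 0.19 and MRPL38 at 0.23 ± 0.13. Among its 81 tested genes this list held 1 with groups apart and the HRAS guide lower, and 2 with it higher. The nuclear subunits of oxidative phosphorylation, partners of the 13 mitochondrial proteins, had 76 genes tested, 20 below 0 and 56 above, with a median of 0.04. NDUFB5 was at 0.23 ± 0.12 and NDUFA1 at 0.22 ± 0.14, both of complex I. Here 1 gene had groups apart with the HRAS guide lower, and 3 with it higher. The signs of these last 2 lists changed with single libraries and with the handling of the GC trend. Without control replicate 1 the ribosomal protein median was -0.0411 (54 below 0, 27 above) and that of the subunits -0.0436 (56 below, 20 above). Without control replicate 2 they were 0.0838 (17 below, 64 above) and 0.129 (9 below, 67 above). With the covariate for the GC trend they were -0.0177 (45 below, 36 above) and -0.0117 (43 below, 33 above), and with the GC and length correction 0.0189 (33 below, 48 above) and 0.0282 (26 below, 50 above).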

How the data were processed

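RNA-seq counts of 6 libraries were analysed, 3 with a control guide and 3 with an HRAS guide. The authors deposited raw whole-number counts for each gene in 1 table of 60664 rows, of which 1 had no values. Per the submitters' processing notes HISAT2, StringTie, DESeq2 and hg38 were used, with no version or role named. The sources used here do not give the counting tool, the strandedness or any rRNA removal. Columns were matched to libraries by guide and replicate number. A gene name table gave symbols for 60462 identifiers, and GENCODE 29 gave coordinates, GC content and sequences.

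After filterByExpr (19836 genes) and TMM scaling, the guides were compared in edgeR 4.0.16 (R 4.3.3) by its two-sided quasi-likelihood test. Group was the only term, p-values were adjusted by Benjamini-Hochberg over all tested genes, and 0.05 was the threshold. SE were derived from the F statistic. Shares and ratios were compared by exact permutation of the libraries. Total counts per library ran from 24968702 to 32283370, and intervals of shares cover counting error only. Scripts were tested on simulated data. Alternatives were DESeq2 1.42.0, limma-voom (limma 3.58.1), other scalings and filters, the replicate block, offsets for GC content and length (splines of 5 and 4 degrees of freedom, fitted on nuclear genes above a mean log2 CPM of 1, used for 19489 genes) and each library left out. A covariate for the sign of the GC trend was added after seeing the data.

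The members, the lists and the tests were chosen with earlier results of these data known. All mRNAs and rRNAs are named, as are the 3 tRNAs with most counts, the 3 nuclear copies with most counts and the 2 genes of smallest p in each nuclear list. MT-TV, MT-TH, MT-TQ and MT-TT were singled out after their values were seen.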

Additional observations from a re-analysis of the deposited data

How the results depend on the processing

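Over all genes edgeR called 2, DESeq2 25 and limma-voom 1. In edgeR the count was 1 with DESeq2 size factors, 1 with a filter of 1 CPM in 3 libraries, 57 with no filter, 38 with the GC and length correction and 81 with the covariate for the GC trend. Leaving out single libraries gave 1 to 24, with 24 without control replicate 2 and 4 without control replicate 1. No pairing by replicate number was seen: same-numbered libraries had deviations correlated at -0.19, -0.29 and -0.057. These deviations also carry the GC trend, so they cannot settle whether the libraries were paired. With the number as a replicate block 1 gene was called, and 5 with the block and the GC and length correction. The number of mitochondrial genes called was 0 under the alternatives run except with the covariate for the GC trend, where it was 1 (MT-RNR2). MT-RNR2 lay between -0.23 and -0.20 when single libraries were left out, with an edgeR adjusted p of 0.0636 without control replicate 2, 0.669 without control replicate 1 and 1 in the other 4 cases. The difference in rRNA share ran from -0.152 to -0.12 percentage points, and that of the MT-RNR2 to mRNA ratio from -0.02 to -0.015.

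For the values that changed sign, the cause was not tested. Without single libraries the difference in light-strand share ran from -0.00759 to 0.0189 percentage points, in MT-RNR1 share from -0.0118 to 0.00268, in MT-RNR1 to mRNA ratio from -0.000693 to 0.00285, in MT-ND6 percent from -0.0301 to 0.0156 and in light-strand share of tRNA counts from -0.281 to 3.01. Log2 fold changes ran likewise from -0.0838 to 0.0027 for MT-RNR1, -0.102 to 0.0135 for MT-CO2, -0.116 to 0.0238 for MT-ATP8, -0.078 to 0.0036 for MT-ATP6 and -0.294 to 0.0013 for MT-ND4L. For tRNAs they ran from -0.197 to 0.543 (MT-TI), -0.087 to 0.0468 (MT-TN), -0.205 to 0.021 (MT-TC), -0.112 to 0.457 (MT-TY), -0.283 to 0.156 (MT-TD), -0.639 to 0.0923 (MT-TK), -0.106 to 0.0979 (MT-TG), -0.0815 to 0.117 (MT-TR), -0.0433 to 0.213 (MT-TL2) and -0.145 to 0.114 (MT-TE). The covariate for the GC trend gave 0.0477 for MT-TC, 0.039 for MT-ATP8, 0.0327 for MT-ND4L and -0.0763 for MT-TR. The GC and length correction gave -0.03 for MT-TY, -0.169 for MT-TR and -0.0772 for MT-TL2, and with the replicate block -0.165 for MT-TR and -0.0946 for MT-TL2. Library totals alone gave 0.0156 for MT-TN and 0.0177 for MT-TE, limma-voom gave 0.0084 for MT-TE and the replicate block 0.0091.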
